A study of Mus musculus with 16 samples.

Results

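Cytochrome P450 enzymes (Cyp genes) were followed in the brown fat and the inguinal white fat of cold-housed and warm-housed mice. Members were the genes whose symbol is built as Cyp, a number, a letter group and a number, and whose mean reached 0.5 CPM (read counts scaled to a common library size) in at least 1 of the 4 groups. They were thus chosen by measured expression level. Of 46078 gene identifiers, 94 carried such a symbol, and 29 of these were members. Another 7 had 0 counts in all libraries. The last member inside the threshold was Cyp4f15, whose highest group mean was 0.574 CPM. Just outside were Cyp4a10 at 0.434 CPM, Cyp2t4 at 0.413 CPM and Cyp8b1 at 0.391 CPM. The liver gene Cyp7a1 had 0 counts. A gene could enter through the group where it was high, so counts of members that differ describe the family and support no claim. In all 4 groups, 18 members reached 0.5 CPM. Another 6, Cyp2ab1, Cyp2b19, Cyp3a57, Cyp4f15, Cyp4f39 and Cyp11a1, were below it in both brown fat groups, and 0 members were below it in both white fat groups.

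P450s are heme enzymes that insert oxygen into lipids, steroids, vitamins and foreign chemicals. Those of the endoplasmic reticulum receive electrons from P450 oxidoreductase and cytochrome b5, and those of mitochondria from ferredoxin. The family is best known from liver, and in fat its members act on fatty acids, oxysterols, retinoids and fat-soluble chemicals.

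RNA was sequenced from brown adipose tissue, which burns fuel to make heat, and inguinal white adipose tissue, a fat store under the skin. The 4 groups of 4 libraries are BAT_cold and WAT_cold (housed at 5 °C) and BAT and WAT (housed at 30 °C). All mice were wild-type C57BL/6 females of 16 weeks that had been bred, born and weaned at 30 °C, and food was withdrawn for 2 to 3 h. Cold mice were transferred at 10 to 12 weeks of age and spent 2 weeks at 18 °C before their 3 weeks at 5 °C. No allele, agent or transgene was used. The tissue label of brown fat also names an inguinal depot, and in 4 of the 8 brown fat libraries (BAT_cold replicates 1 and 2, BAT replicates 3 and 4) the source label and the title disagree on temperature, and groups follow the title and the housing label. The labels do not tie libraries to separate mice, so p-values measure the spread between these libraries, which may be technical.

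Depth was 54264023 to 71289020 counts per library. The summed CPM of 4 brown adipocyte markers was 16100 to 17600 in BAT_cold, 2670 to 4620 in BAT, 56.7 to 671 in WAT_cold and 9.8 to 27.5 in WAT, and that of 5 general adipocyte markers was at least 6900 in every library. WAT_cold replicate 1 stood apart from the labels and from its group. It held 3 counts of Xist, the RNA of the inactive X chromosome in females, against 11136 to 88934 in the other 15 libraries. Its summed mammary epithelium markers were at 12.8 CPM, against 615 to 1260 CPM in the other white fat libraries, and its adipocyte markers at 22600 CPM, against 6900 to 11300 CPM. Counts of members that use WAT_cold, and values of many of the members named, are also given without this library. In bulk tissue, fewer cells of a type and less RNA per cell cannot be told apart.

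The promoters of 3 members are shown first, because Cyp1a1 had the largest cold effect described below, Cyp1b1 is its relative that moved the other way, and Cyp2e1 had the highest level. Each window is RefSeq sequence of GRCm38.p6, from 250 bases before to 50 bases after the start of the gene. They lie at chr9:57697363-57697662 (plus strand, Cyp1a1), chr17:79715012-79715311 (minus strand, Cyp1b1) and chr7:140763569-140763868 (plus strand, Cyp2e1). Capitals mark GCGTG, the core of the element bound by the Ah receptor (CACGC when it lies on the other strand), and the TATA box TATAAA.
Cyp1a1: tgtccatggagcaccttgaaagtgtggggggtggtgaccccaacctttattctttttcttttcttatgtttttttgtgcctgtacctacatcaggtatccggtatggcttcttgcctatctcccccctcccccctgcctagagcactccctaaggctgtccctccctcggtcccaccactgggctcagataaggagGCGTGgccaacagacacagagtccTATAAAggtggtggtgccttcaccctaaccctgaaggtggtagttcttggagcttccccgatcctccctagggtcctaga
Cyp1b1: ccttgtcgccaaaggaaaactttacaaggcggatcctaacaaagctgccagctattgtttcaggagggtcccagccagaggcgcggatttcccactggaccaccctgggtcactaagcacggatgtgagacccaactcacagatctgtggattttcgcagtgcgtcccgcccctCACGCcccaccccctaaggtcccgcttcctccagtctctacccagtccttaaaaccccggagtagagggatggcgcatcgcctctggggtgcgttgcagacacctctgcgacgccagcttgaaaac
Cyp2e1: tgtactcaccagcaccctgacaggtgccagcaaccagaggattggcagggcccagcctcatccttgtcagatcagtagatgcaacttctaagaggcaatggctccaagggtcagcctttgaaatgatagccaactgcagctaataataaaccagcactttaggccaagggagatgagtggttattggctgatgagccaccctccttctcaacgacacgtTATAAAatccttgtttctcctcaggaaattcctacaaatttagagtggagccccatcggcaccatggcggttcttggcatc
Cyp1a1 and Cyp1b1 each had 1 GCGTG core, beginning 54 bases and 76 bases before the start, and Cyp2e1 had 0. Both strands were searched, and the marked motifs did not overlap. Of the members, 24 were matched to 25 promoter windows, and 11 of these windows held GCGTG, against 32.4% of all 32851 windows of that length. TATAAA was in 3 of the 25 windows and in 13.6% of all windows. A match describes these letters and shows no binding.

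**Figure D1:**
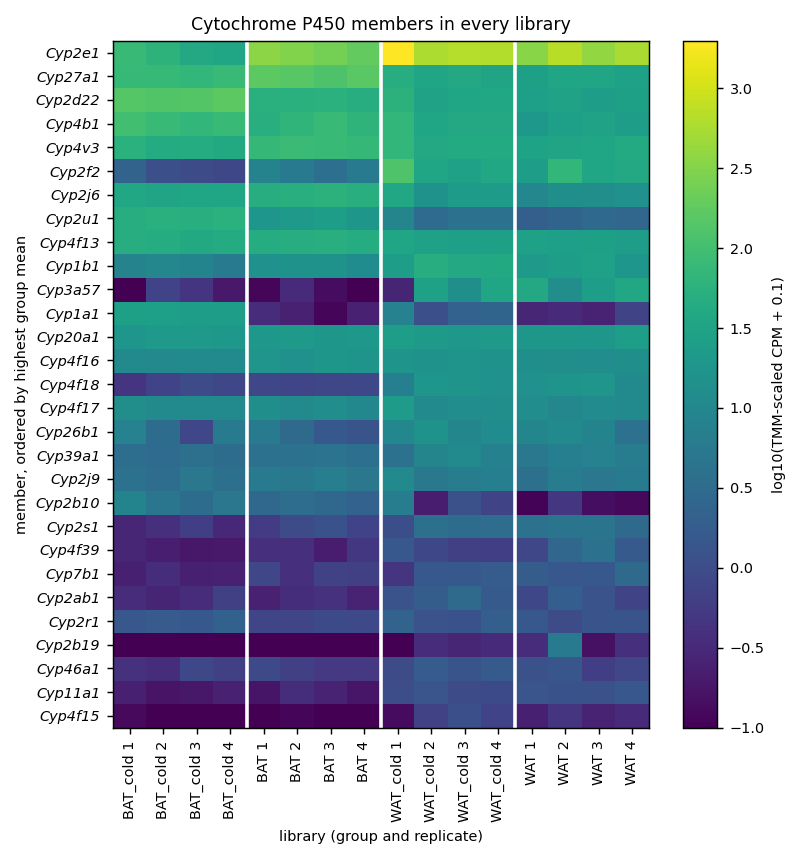
Heat map of the 29 members (rows, ordered by highest group mean) in the 16 libraries (columns), with colour showing log10 of TMM-scaled CPM + 0.1. Cyp2e1 was at 585 CPM or more in all WAT_cold libraries and at 78.2 CPM or less in BAT_cold, while Cyp1a1 was at 25.6 CPM or more in all BAT_cold libraries.

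Per kilobase of merged exons, which allows genes to be compared, Cyp2e1 had the highest level in 3 of the 4 groups. Cyp2e1 oxidises ethanol, acetone and other small molecules. Its mean level was 24.6 RPKM (CPM per kilobase) in BAT_cold, 128 RPKM in BAT, 447 RPKM in WAT_cold and 232 RPKM in WAT. In BAT_cold, Cyp2d22 at 37.5 RPKM, Cyp4b1 at 36.7 RPKM and Cyp27a1 at 34.5 RPKM stood above it. In BAT the next members were Cyp27a1 at 69.0 RPKM and Cyp4b1 at 28.6 RPKM. In WAT they were Cyp2f2 at 20.9 RPKM, Cyp27a1 at 14.5 RPKM and Cyp3a57 at 14.3 RPKM. Cyp2e1 alone took 5.53 to 11.3% of the family's summed CPM in BAT_cold, 25.8 to 39.5% in BAT, 59.4 to 76.8% in WAT_cold and 51.7 to 64.3% in WAT. Without Cyp2e1 the family summed to 550 to 614 CPM in BAT_cold, 537 to 564 CPM in BAT, 399 to 600 CPM in WAT_cold and 318 to 379 CPM in WAT.

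The first comparison asked how brown fat P450 transcripts differed after weeks of cold. Cyp1a1, Cyp2d22 and Cyp2u1 rose, and Cyp2e1, Cyp2f2, Cyp7b1 and Cyp1b1 fell. Of the 24 members tested in BAT_cold against BAT, 6 rose, 10 fell and 8 did not pass (edgeR quasi-likelihood test, Benjamini-Hochberg adjusted p below 0.05). Among all 16213 genes tested, 29.2% rose, 30.3% fell and 59.5% changed in either direction, against 66.7% of the members tested, a share near the background. The members' median log2 fold change was -0.16, against -0.05 for all genes. Groups did not overlap for 4 members higher and 9 lower in BAT_cold, against 26.3% and 28.9% of all genes tested. With library totals in place of TMM scaling the median of all genes was -0.43, and 4 members rose while 14 fell. The 5 members that did not pass the filter on low counts in brown fat were Cyp2b19, Cyp3a57, Cyp4f15, Cyp4f39 and Cyp11a1.

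Cyp1a1 (ENSMUSG00000032315) oxidises polycyclic aromatic hydrocarbons and is the classical target of the Ah receptor. It was at 27.9, 26.9, 25.7 and 25.6 CPM in BAT_cold, against 0.257, 0.147, 0.0202 and 0.149 CPM in BAT. Every BAT_cold library lay far above every BAT library, and the cold libraries were within a narrow range. The log2 fold change was 7.50 ± 0.31 (SE, adjusted p = 1.15e-07). Of 50-base windows of its exons, 3.43% also occur in another gene, mainly Cyp1a2, which was at 0.016 CPM or less. The other CYP1 member, Cyp1b1 (ENSMUSG00000024087), oxidises oestrogens and aromatic hydrocarbons. It was at 8.13, 9.59, 8.54 and 5.91 CPM in BAT_cold, against 14.6, 15.5, 15.9 and 12.4 CPM in BAT. The groups did not overlap, and Cyp1b1 fell by 0.84 on the log2 scale (SE 0.14, adjusted p = 0.000669), so the 2 members of this class moved in opposite directions.

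Of the 8 tested genes of the Ah receptor pathway, 2 rose and 3 fell in BAT_cold, with a median log2 fold change of 0.02. For comparison, 29.2% of all genes tested rose and 30.3% fell. The receptor Ahr itself differed by 0.09 ± 0.16 (SE, adjusted p = 0.639) and its repressor Ahrr by -0.06 ± 0.33 (SE, adjusted p = 0.893). The receptor's partner Arnt fell by 0.56, the target Tiparp, a mono-ADP-ribosyltransferase, fell by 0.68 and the glucuronosyltransferase Ugt1a6a fell by 3.64. The antioxidant regulator Nfe2l2 rose by 0.59, all on the log2 scale.

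**Figure D2:**
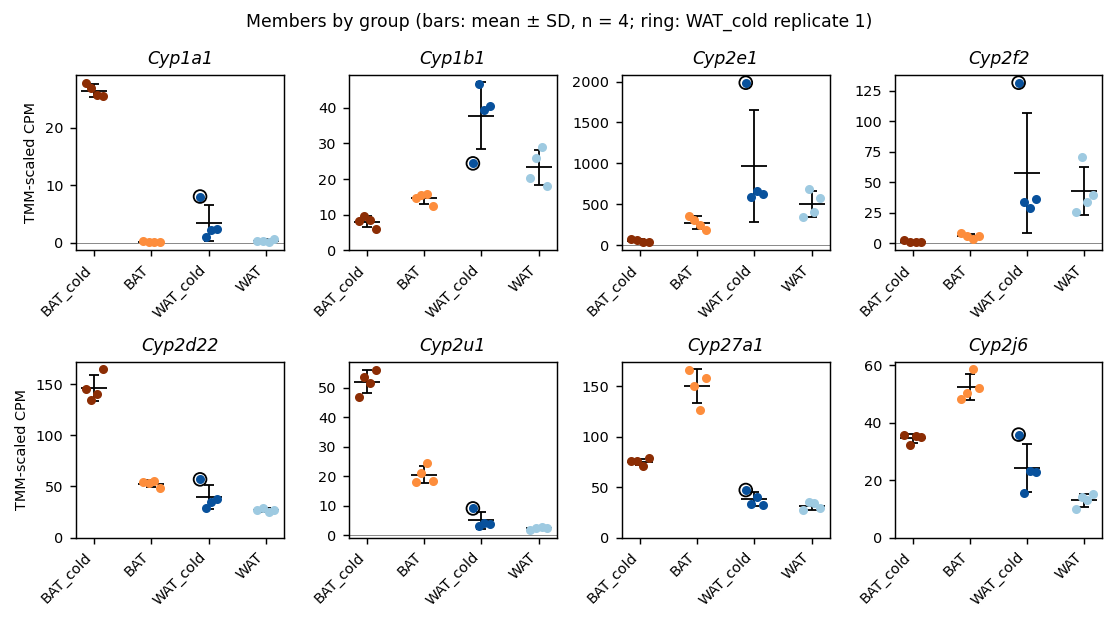
TMM-scaled CPM of 8 members in each library (points), by group from BAT_cold to WAT, with mean ± SD (n = 4) as bars and a ring around WAT_cold replicate 1. Cyp1a1, Cyp2d22 and Cyp2u1 were higher in every BAT_cold library than in any BAT library. The ringed library was the highest of its group for every member shown except Cyp1b1, for which it was the lowest.

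Among the other CYP2 enzymes, 2 of 6 tested rose in BAT_cold and 3 fell, where 29.2% of all genes tested rose and 30.3% fell. Cyp2d22 (ENSMUSG00000061740), a mouse CYP2D enzyme that is expressed outside the liver, was at 145, 135, 141 and 165 CPM in BAT_cold, against 54.1, 53.4, 55.2 and 48 CPM in BAT. It rose by 1.5 ± 0.08 on the log2 scale (SE, adjusted p = 3.94e-07). Cyp2e1 (ENSMUSG00000025479) was at 78.2, 60.15, 38.8 and 34.9 CPM in BAT_cold, against 361, 303, 251 and 186 CPM in BAT. The ranges did not overlap, and Cyp2e1 fell by 2.35 on the log2 scale (SE 0.28, adjusted p = 7.16e-05). Cyp2f2 (ENSMUSG00000052974), known for oxidising naphthalene in mouse lung, was at 2.25, 1, 0.873 and 0.748 CPM in BAT_cold, against 8.2, 5.88, 3.6 and 5.5 CPM in BAT, a fall of 2.23 (SE 0.38, adjusted p = 0.000675).

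Cyp2b10, the phenobarbital-inducible enzyme driven in liver by the receptor CAR (Nr1i3), was at 8.71, 4.74, 3.22 and 4.9 CPM in BAT_cold, against 2.67, 3.34, 2.67 and 2.11 CPM in BAT. Its log2 fold change of 1.03 ± 0.29 (SE, adjusted p = 0.0121) came with overlapping groups. The call was lost with library totals (0.65, adjusted p = 0.0707), in the 4 libraries whose labels match (0.47, adjusted p = 0.285) and in the fit of all 16 libraries (adjusted p = 0.389). Nr1i3 differed by -0.05 ± 0.53 (SE, adjusted p = 0.939). Cyp2s1, an enzyme of epithelia, fell by 1.29 on the log2 scale (adjusted p = 0.0178) and averaged 0.307 ± 0.153 CPM in BAT_cold and 0.773 ± 0.282 CPM in BAT (SD, n = 4 each). Its call was lost with matching labels (adjusted p = 0.319) and without BAT_cold replicate 4 (adjusted p = 0.0527) or BAT replicate 3 (adjusted p = 0.0625).

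Enzymes of arachidonic and other long-chain fatty acids were split. Cyp2u1 (ENSMUSG00000027983), a fatty acid hydroxylase, was at 47, 53.5, 51.7 and 56 CPM in BAT_cold, against 18.1, 21.15, 24.45 and 18.5 CPM in BAT. The groups did not overlap, and the log2 fold change was 1.37 ± 0.10 (SE, adjusted p = 3.15e-06). Of its exon windows, 12.3% also occur in another gene. The share was 17.4% for Cyp4f16 (mainly Cyp4f37), 9.0% for Cyp2f2, 8.7% for Cyp2b10 and 8.26% for Cyp4b1. These are shares of sequence and not of reads, so they do not measure how uncertain these counts are. Cyp2j6 (ENSMUSG00000052914), of the CYP2J epoxygenases, was at 35.8, 32.1, 35.3 and 35 CPM in BAT_cold, against 48.4, 50.3, 58.7 and 52.2 CPM in BAT, and fell by 0.57 (SE 0.07, adjusted p = 9.23e-05). Its relative Cyp2j9 was at 4.02, 3.29, 4.89 and 3.81 CPM in BAT_cold, against 5.99, 5.2, 6.73 and 5.03 CPM in BAT, and fell by 0.49 (adjusted p = 0.0216). Both CYP2J members were lower in every cold library, but the Cyp2j9 call was lost in the fit of all 16 libraries (adjusted p = 0.0954), with matching labels (adjusted p = 0.298), and without BAT_cold replicate 2 or 4 or BAT replicate 1 or 3 (adjusted p 0.0526 to 0.0728).

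In the CYP4 group, whose members hydroxylate the ends of fatty acids and eicosanoids, 1 of 6 tested rose and 2 fell. The background was again 29.2% of all genes rising and 30.3% falling. Cyp4v3, whose human counterpart CYP4V2 is mutated in a crystalline retinal dystrophy, was at 55.2, 44.5, 46.1 and 40.25 CPM in BAT_cold, against 74, 83.7, 77.4 and 72.2 CPM in BAT, a fall of 0.70 (SE 0.09, adjusted p = 0.000133). Cyp4f16 was at 11.15, 10.5, 11.1 and 10.9 CPM in BAT_cold, against 17.1, 14.9, 18.9 and 16.4 CPM in BAT, a fall of 0.60 (adjusted p = 0.000232). Both ranges were apart. Cyp4b1, a fatty acid and xenobiotic hydroxylase of extrahepatic tissues, was at 101, 81.1, 69 and 80.1 CPM in BAT_cold, against 51.7, 64.6, 80.1 and 61.6 CPM in BAT, with overlap. Its log2 fold change was 0.39 ± 0.14 (SE, adjusted p = 0.0422), and with library totals it was 0.01 (adjusted p = 0.965). The call was also lost in the fit of all 16 libraries (adjusted p = 0.172), with matching labels (adjusted p = 0.0897), and without BAT_cold replicate 1, 2 or 4 or BAT replicate 1, 2 or 4 (adjusted p 0.0633 to 0.112). Cyp4f13 (-0.08, adjusted p = 0.333) and Cyp4f17 (-0.02, adjusted p = 0.910) did not pass.

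Of the 4 enzymes of cholesterol, bile acids and oxysterols, 2 fell in BAT_cold, where 30.3% of all genes tested fell. Cyp27a1 (ENSMUSG00000026170), the mitochondrial sterol 27-hydroxylase, was at 75.4, 75.35, 70.5 and 78.5 CPM in BAT_cold, against 165.5, 149.6, 127 and 158 CPM in BAT. The groups were far apart, and Cyp27a1 fell by 0.97 (SE 0.09, adjusted p = 1.06e-05). Cyp7b1, the oxysterol 7-alpha-hydroxylase, fell by 1.59 (SE 0.38, adjusted p = 0.00506) and averaged 0.172 ± 0.0634 CPM in BAT_cold and 0.538 ± 0.177 CPM in BAT (SD, n = 4 each), and it did not pass in the libraries with matching labels (-1.79, adjusted p = 0.079). Cyp39a1, which acts on 24-hydroxycholesterol, differed by -0.19 (adjusted p = 0.226) and Cyp46a1, the cholesterol 24-hydroxylase of brain, by -0.18 (adjusted p = 0.707). Cyp2r1, a vitamin D 25-hydroxylase, rose by 1.14 ± 0.21 (SE, adjusted p = 0.00123) and averaged 1.63 ± 0.323 CPM in BAT_cold and 0.754 ± 0.065 CPM in BAT (SD, n = 4 each). Cyp26b1, which breaks down retinoic acid, varied from 0.712 to 8.02 CPM in BAT_cold and from 1.22 to 5.48 CPM in BAT and did not pass (0.72 ± 0.67, adjusted p = 0.377). Cyp20a1, a member with no well-known substrate, averaged 19.8 ± 1.46 CPM in BAT_cold and 19.8 ± 0.992 CPM in BAT (SD, n = 4 each, adjusted p = 0.730), and with library totals it fell by 0.35 (adjusted p = 0.00301).

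Other genes on which P450s depend were also counted in BAT_cold against BAT. Of the 10 tested electron donors and their helpers, 8 rose and 0 fell, with a median log2 fold change of 0.50, where 29.2% of all genes tested rose and 30.3% fell. The same background holds for the counts that follow. Por, the P450 oxidoreductase, rose by 0.46 (adjusted p = 0.00245), the outer mitochondrial cytochrome b5 Cyb5b by 1.79 (adjusted p = 2.38e-07), its reductase Cyb5r3 by 1.28 and the ferredoxin Fdx1 by 0.54. Of 14 genes of heme synthesis and breakdown, 9 rose and 4 fell. Heme oxygenase Hmox1 rose by 1.74 and the first enzyme of heme synthesis, Alas1, fell by 0.53 (adjusted p = 0.000826). Of 8 flavin monooxygenases and epoxide hydrolases, 4 rose and 2 fell, with Ephx1 (2.44) and Ephx2 (0.86) among those that rose.

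Of 14 nuclear receptors that drive P450 genes, 3 rose and 3 fell in BAT_cold. The oxysterol receptor Nr1h3 rose by 0.93, while Ppara fell by 1.19 and the oestrogen receptor Esr1 by 1.94. Of 13 steroid and oxysterol genes, 5 rose and 2 fell, among them Hsd11b1 (1.79), which regenerates active glucocorticoid, and Ch25h (-2.04), the cholesterol 25-hydroxylase. Among the 3 P450 genes with symbols outside the naming rule, Cyp51 of cholesterol synthesis rose by 2.11 (adjusted p = 1.65e-06), and the prostacyclin synthase Ptgis (0.68, adjusted p = 0.107) and the thromboxane synthase Tbxas1 (-0.46, adjusted p = 0.144) did not pass. These lists describe the surroundings of the family, and no list was tested as a set.

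**Figure D3:**
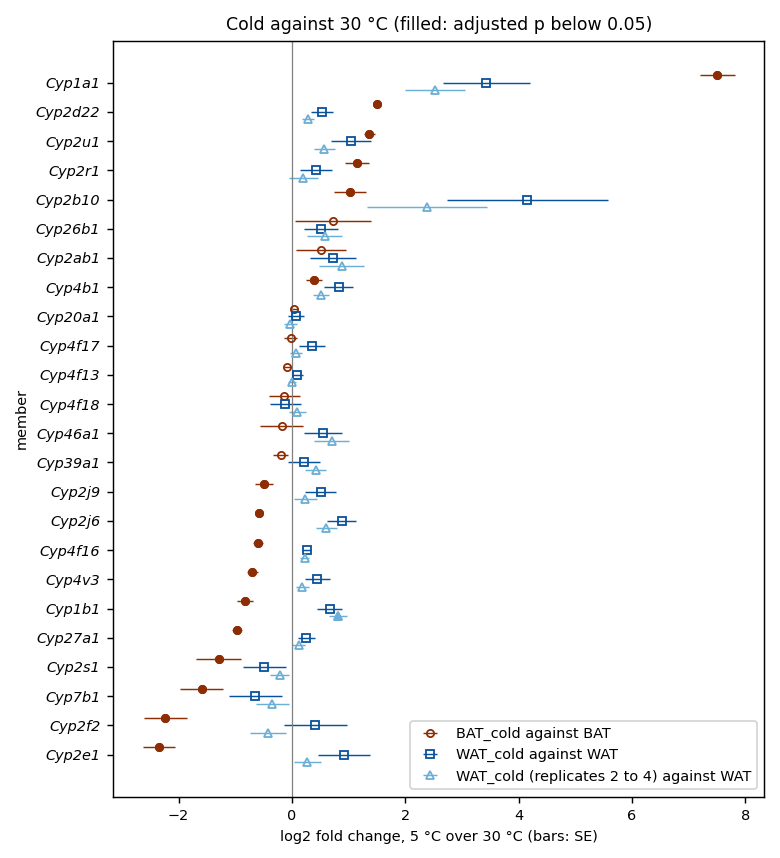
Log2 fold change of 5 °C over 30 °C with SE for the 24 members tested in brown fat, filled where adjusted p was below 0.05. Shown are brown fat (circles), white fat (squares) and white fat with WAT_cold replicate 1 left out (triangles). Cyp2b19, Cyp3a57, Cyp4f15, Cyp4f39 and Cyp11a1, tested in white fat only, are not drawn. In brown fat Cyp1a1 (7.50) stood furthest to the right and Cyp2e1 (-2.35) furthest to the left, and in white fat the single filled symbol is Cyp1b1 without that library (0.82).

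The second comparison, WAT_cold against WAT, asked the same of white fat. Of 29 members, 0 rose and 0 fell by edgeR's quasi-likelihood test, while 9 had an unadjusted p below 0.05. Among all 18975 genes tested, 0.0632% rose and 0% fell, so few calls were made in the whole table. DESeq2 called 4 members (Cyp1a1, Cyp4f16, Cyp2b10 and Cyp2j6), and the fit of all 16 libraries called 8 by adding Cyp1b1, Cyp2d22, Cyp2u1 and Cyp4b1. The members' median log2 fold change was 0.43, against -0.01 for all genes, and it was 0.23 without WAT_cold replicate 1. Without that library 1 member rose, 0 fell and 10 had an unadjusted p below 0.05, against 1.84% of 19320 genes that rose and 0.274% that fell (2.11% together). The rule applied without that library gave 30 members by adding Cyp4a10. By edgeR, Cyp4a10 also rose without that library, by 2.14 (adjusted p = 0.0306). With all libraries it did not pass (1.77, adjusted p = 0.276).

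Groups did not overlap for 6 members, all higher in WAT_cold (Cyp1a1, Cyp2d22, Cyp2j6, Cyp2u1, Cyp4b1 and Cyp4f16), against 9.42% of all genes that were higher and 5.02% lower in this sense. Without WAT_cold replicate 1 there were 8, the others being Cyp1b1 and Cyp4f15, against 13.4% higher and 6.54% lower. Cyp1b1 was at 24.4, 46.7, 39.4 and 40.6 CPM in WAT_cold, against 20.2, 25.8, 29 and 18.1 CPM in WAT. With all libraries the groups overlapped through replicate 1, at 0.67 ± 0.22 (SE, adjusted p = 0.218). Without it Cyp1b1 rose by 0.82 ± 0.16 (SE, adjusted p = 0.0473), and the means were 42.2 ± 3.91 CPM in WAT_cold (SD, n = 3) and 23.3 ± 5 CPM in WAT (SD, n = 4).

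Cyp1a1 was at 8.02, 1.04, 2.12 and 2.3 CPM in WAT_cold, against 0.187, 0.225, 0.16 and 0.651 CPM in WAT. Every cold library was above every warm one, with replicate 1 the highest, but the log2 fold change of 3.43 ± 0.77 (SE, adjusted p = 0.132) did not pass, nor did the 2.53 ± 0.52 without it (SE, adjusted p = 0.0534). Cyp2u1 was at 9.1, 3.04, 4.07 and 3.97 CPM in WAT_cold, against 1.93, 2.31, 2.89 and 2.5 CPM in WAT. The fold change on the log2 scale was 1.04 (adjusted p = 0.224), or 0.58 (adjusted p = 0.116) without replicate 1. Cyp2j6 was at 35.8, 15.5, 23 and 22.7 CPM in WAT_cold, against 9.8, 14, 13 and 15.1 CPM in WAT, also without overlap (0.88, adjusted p = 0.195, or 0.61, adjusted p = 0.112, without replicate 1). These members had their highest WAT_cold value in replicate 1, the library with the highest adipocyte markers, and the part of that difference in the result was not tested.

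Cyp2e1 was at 1986, 585, 661.5 and 629 CPM in WAT_cold, against 340.5, 683, 406 and 573 CPM in WAT. The other 3 cold libraries lay within the range of WAT, and replicate 1 was far above it. The log2 fold change was 0.92 ± 0.46 (SE, adjusted p = 0.309), and 0.27 ± 0.24 without that library (SE, adjusted p = 0.516). Cyp2f2 was at 131.5, 33.3, 28.9 and 36.3 CPM in WAT_cold, against 25.4, 70.8, 33.8 and 39.7 CPM in WAT, and its estimate turned from 0.42 (adjusted p = 0.684) with all libraries to -0.42 (adjusted p = 0.460) without replicate 1. Cyp2d22 was at 57, 29.4, 34.6 and 38 CPM in WAT_cold, against 26.8, 29.4, 24.6 and 27.3 CPM in WAT (0.53, adjusted p = 0.243, or 0.29, adjusted p = 0.152, without replicate 1). Cyp4b1 was at 70.7, 33, 38.8 and 39.3 CPM in WAT_cold, against 19.4, 26.9, 29.5 and 25 CPM in WAT (0.82, adjusted p = 0.208, or 0.51, adjusted p = 0.0923, without replicate 1). Cyp4v3 was at 71.1, 38.4, 42.4 and 41.6 CPM in WAT_cold, against 31.4, 31.9, 33.05 and 42.8 CPM in WAT, and without replicate 1 it differed by 0.19 (adjusted p = 0.391). In all of these, replicate 1 held the highest value of its group.

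Cyp2b10 was at 6.48, 0.124, 1.08 and 0.665 CPM in WAT_cold, against 0.00985, 0.375, 0.0456 and 0.0237 CPM in WAT, a wide spread with overlapping groups (4.16, adjusted p = 0.224). Without replicate 1 the log2 fold change was 2.39 (adjusted p = 0.223). Cyp27a1 was at 47.1, 33.4, 39.7 and 32.4 CPM in WAT_cold, against 27.1, 35.4, 34.2 and 29.1 CPM in WAT (0.25, adjusted p = 0.372, or 0.12, adjusted p = 0.581, without replicate 1). Cyp4f16 was at 16.9, 15.9, 16.7 and 15.4 CPM in WAT_cold, against 13.5, 13.2, 12.7 and 13.8 CPM in WAT, a small difference without overlap (0.26, adjusted p = 0.218, or 0.23, adjusted p = 0.14, without replicate 1). Cyp2j9 was at 11.1, 5.08, 6.64 and 7.12 CPM in WAT_cold, against 3.77, 6.27, 4.89 and 5.72 CPM in WAT, with overlap, and without replicate 1 it differed by 0.24 (adjusted p = 0.511).

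Of 75 pathway genes tested in WAT_cold against WAT, 22 had an unadjusted p below 0.05 and edgeR's quasi-likelihood test called 0 of 11 electron donors, 10 Ah receptor genes, 15 nuclear receptors, 14 heme genes, 8 flavin monooxygenases and epoxide hydrolases, 14 steroid genes and 3 other P450s. Without WAT_cold replicate 1, 3 rose: Cyb5b by 0.97 (adjusted p = 0.0222), the heme enzyme Urod by 0.51 (adjusted p = 0.0432) and Hsd17b12, a dehydrogenase of fatty acid elongation, by 1.29 (adjusted p = 0.0234). Ahr differed by 0.12 (adjusted p = 0.692), or 0.23 (adjusted p = 0.297) without that library.

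The cold effects of white and brown fat were compared directly as the cold effect in WAT minus that in BAT. Of 29 members, 8 had a higher and 2 a lower effect in white fat, against 12.5% and 8.34% of all 19481 genes tested, or 20.8% in either direction. Without WAT_cold replicate 1 there were 9 higher and 4 lower, against 15.6% and 15.7%, or 31.3% in either direction. The lower 2 were Cyp1a1, at -4.06 ± 0.92 (SE, adjusted p = 0.00583), and Cyp2d22, at -0.94 ± 0.22 (SE, adjusted p = 0.00726). Without that library they were -4.99 (adjusted p = 9.38e-05) and -1.22 (adjusted p = 1.29e-05).

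The 8 members with a higher effect in white fat were all members that fell in brown fat. Because the brown fat effect is subtracted, a fall there raises the difference by construction. Cyp2e1 had the largest difference at 3.30 ± 0.58 (SE, adjusted p = 0.00103), and without replicate 1 it was 2.62 (adjusted p = 0.000219). Cyp2f2 followed at 2.69 (adjusted p = 0.0167), or 1.83 (adjusted p = 0.0139) without that library. Cyp1b1 was at 1.53 ± 0.27 (SE, adjusted p = 0.0012), Cyp2j6 at 1.48 (adjusted p = 0.00172), Cyp27a1 at 1.26 ± 0.18 (SE, adjusted p = 0.000243), Cyp4v3 at 1.18 (adjusted p = 0.00409), Cyp2j9 at 1.03 (adjusted p = 0.0353) and Cyp4f16 at 0.89 (adjusted p = 0.000116). The Cyp2j9 call was lost without BAT_cold replicate 1, 2 or 4, BAT replicate 1 or 3, WAT_cold replicate 4, or WAT replicate 1 or 3 (adjusted p 0.0509 to 0.0724). Cyp2u1, which rose in brown fat, differed by -0.30 (adjusted p = 0.615), and by -0.80 (adjusted p = 0.00521) without replicate 1. Without it Cyp2r1 (-0.95, adjusted p = 0.0415) and Cyp39a1 (0.61, adjusted p = 0.0471) passed too. The values of the others were then 1.64 for Cyp1b1, 1.18 for Cyp2j6, 1.09 for Cyp27a1, 0.87 for Cyp4v3, 0.72 for Cyp2j9 and 0.81 for Cyp4f16, and each still passed.

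The depots were then compared at each temperature, as brown over white fat. At 30 °C, 9 of 29 members were higher and 14 lower in BAT than in WAT, against 34.5% and 35.3% of all 19481 genes tested. In either direction that was 79.3% of members and 69.8% of genes. At 5 °C, 7 were higher and 16 lower in BAT_cold than in WAT_cold, against 31.8% and 40.5% of genes, or 72.4% in either direction. Without WAT_cold replicate 1 the counts were 8 and 16, against 34% and 42.2%, or 76.2% in either direction. The members' median log2 fold change was -0.68 at 30 °C and -1.16 at 5 °C, against -0.03 and -0.19 for all genes. Of the members, 6 reached the CPM threshold of the entry rule only in white fat and 0 only in brown fat. The rule thus pulled the medians and the counts of lower members toward white fat, while all genes were not chosen by it. The gap between members and all genes therefore supports no claim about the family. With library totals the medians of all genes moved to -0.88 and -1.12, and the counts became 6 higher and 21 lower at 30 °C and 3 higher and 23 lower at 5 °C. Both comparisons rest on the libraries already used for the cold effects. Groups did not overlap for 9 members higher and 13 lower at 30 °C, against 32.2% and 34.6% of genes, and for 5 higher and 15 lower at 5 °C, against 27.2% and 34.1%. Without WAT_cold replicate 1 the 5 °C counts were 8 and 17, against 32.8% and 44.1%.

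**Figure D4:**
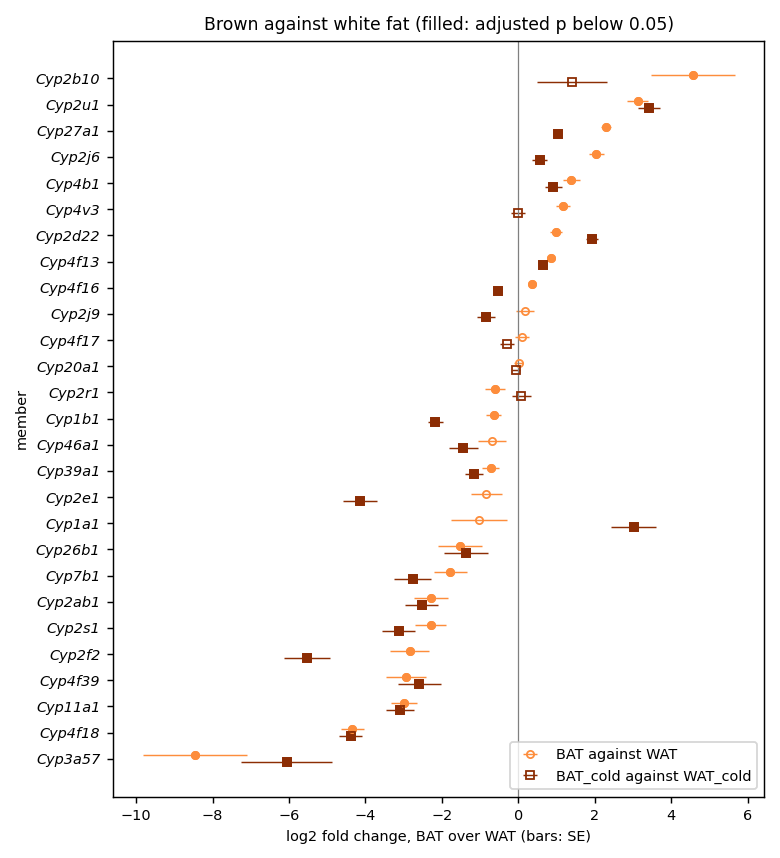
Log2 fold change of brown over white fat with SE for 27 members at 30 °C (circles) and at 5 °C (squares), filled where adjusted p was below 0.05, leaving out Cyp2b19 and Cyp4f15, which had at most 1 count per brown fat group. Cyp3a57 (-8.47 at 30 °C) and Cyp4f18 (-4.34) stood at the white fat side, Cyp2b10 (4.58) and Cyp2u1 (3.12) at the brown fat side.

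Members higher in brown fat included Cyp2u1, at 3.12 at 30 °C (adjusted p = 2.19e-07) and 3.42 at 5 °C (adjusted p = 8.55e-08, or 3.86 without WAT_cold replicate 1). Cyp27a1 was 2.29 ± 0.13 higher in BAT than in WAT (SE, adjusted p = 6.61e-09) and 1.03 ± 0.13 higher in BAT_cold than in WAT_cold (SE, adjusted p = 4.58e-06), or 1.14 without that library. Cyp2d22 had a difference of 0.99 (adjusted p = 5.1e-05) at 30 °C and of 1.93 (adjusted p = 9.12e-08, or 2.15 without that library) at 5 °C. Cyp2j6 was higher in brown fat by 2.04 (adjusted p = 5.52e-07) at 30 °C and by 0.56 (adjusted p = 0.0181) at 5 °C, where library totals turned it to -0.31 and leaving out WAT_cold replicate 2 gave 0.39 (adjusted p = 0.0504), while leaving out replicate 1 gave 0.81 (adjusted p = 0.000145). With library totals the calls were also lost for Cyp2d22 (0.14, adjusted p = 0.166) and Cyp4f13 (0.01, adjusted p = 0.91) at 30 °C and for Cyp27a1 at 5 °C (0.12, adjusted p = 0.317). Cyp4f13 was higher by 0.86 (adjusted p = 3.11e-07) and 0.66 (adjusted p = 3.75e-06), and library totals turned the 5 °C value to -0.26. The 5 °C value was 0.73 without WAT_cold replicate 1. Cyp4f16 was 0.37 higher in BAT (adjusted p = 0.000927) and 0.52 lower in BAT_cold, a difference of -0.52 (adjusted p = 4.57e-05, or -0.51 without WAT_cold replicate 1), and library totals turned the 30 °C value to -0.48.

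Cyp1a1 did not pass between the depots at 30 °C (-1.03 ± 0.73, SE, adjusted p = 0.219; with library totals -1.86, adjusted p = 0.014) and was 3.03 ± 0.59 higher in BAT_cold than in WAT_cold (SE, adjusted p = 0.000303), or 3.91 ± 0.45 without WAT_cold replicate 1 (SE, adjusted p = 1.4e-06). Cyp2b10 was 4.58 higher in BAT than in WAT (adjusted p = 0.00166), did not pass at 5 °C (1.42, adjusted p = 0.177), and was 3.16 higher there without WAT_cold replicate 1 (adjusted p = 0.00207). Cyp4b1 was higher in brown fat by 1.39 (adjusted p = 5.79e-05) at 30 °C and by 0.91 (adjusted p = 0.00168) at 5 °C, where library totals gave 0.05 (adjusted p = 0.783) and leaving out WAT_cold replicate 1 gave 1.21. Cyp4v3 was higher by 1.17 (adjusted p = 3.8e-05) at 30 °C and did not pass at 5 °C (adjusted p = 0.982, or 0.0819 without WAT_cold replicate 1).

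Members lower in brown fat included Cyp2f2, at -2.84 at 30 °C (adjusted p = 0.00018) and -5.53 at 5 °C (adjusted p = 1.25e-06), or -4.73 at 5 °C without WAT_cold replicate 1 (adjusted p = 5.57e-08). Cyp2e1 did not pass at 30 °C (-0.84 ± 0.40, SE, adjusted p = 0.0743), although it did with RLE scaling (-0.91, adjusted p = 0.0493), with library totals (-1.68, adjusted p = 0.000462) and by DESeq2 (adjusted p = 0.0274), and it was at -4.14 ± 0.45 at 5 °C (SE, adjusted p = 1.24e-06), or -3.51 (adjusted p = 6.34e-08) without WAT_cold replicate 1. Cyp1b1 was at -0.64 (adjusted p = 0.00785) and -2.17 (adjusted p = 2.44e-07). Cyp26b1 was at -1.52 (adjusted p = 0.0287) and -1.36 (adjusted p = 0.0449), and Cyp7b1 at -1.77 (adjusted p = 0.00201) and -2.76 (adjusted p = 0.000115), each at 30 °C and then at 5 °C. The Cyp26b1 calls were lost at 30 °C without BAT replicate 2, 3 or 4 or WAT replicate 1, 2 or 3 (adjusted p 0.0503 to 0.0809), and at 5 °C without replicate 2, 3 or 4 of either group (adjusted p 0.0518 to 0.103). At 5 °C the values without WAT_cold replicate 1 were -2.35 for Cyp1b1, -1.43 for Cyp26b1 and -3.07 for Cyp7b1.

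The vitamin D enzyme Cyp2r1 was lower in BAT than in WAT (-0.60, adjusted p = 0.0473), a call lost without any single BAT library or without WAT replicate 1, 3 or 4 (adjusted p 0.0621 to 0.125), and it did not pass at 5 °C (0.08, adjusted p = 0.784). Cyp46a1 (-0.68, adjusted p = 0.111) and Cyp2j9 (0.18, adjusted p = 0.491) did not pass at 30 °C, while both were lower in BAT_cold than in WAT_cold (-1.44, adjusted p = 0.00305, and -0.85, adjusted p = 0.00399). When WAT_cold replicate 1 was left out, the 5 °C values were 0.29 for Cyp2r1 (adjusted p = 0.29), -1.62 for Cyp46a1 and -0.60 for Cyp2j9 (adjusted p = 0.0095).

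Other low members were also lower in brown fat at both temperatures: Cyp2s1 (-2.30 and -3.13), Cyp2ab1 (-2.29 and -2.53), Cyp39a1 (-0.72 and -1.16), Cyp4f39 (-2.93 and -2.59), and Cyp11a1, the side-chain cleavage enzyme that begins steroid synthesis (-2.99 and -3.09). Cyp2ab1, Cyp4f39 and Cyp11a1, like Cyp2b19, Cyp4f15 and Cyp3a57 below, became members only through white fat. Their direction between the depots was thus largely set by the entry rule. Leaving out WAT_cold replicate 1 gave 5 °C values of -3.43 for Cyp2s1, -2.71 for Cyp2ab1, -1.39 for Cyp39a1, -2.19 for Cyp4f39 and -3.13 for Cyp11a1. Of 5 markers of steroid-making cells, Hsd3b1 had 0 counts in every group. Their summed level was 2.33 to 2.53 CPM in BAT_cold, 1.97 to 3.29 CPM in BAT, 3.02 to 3.74 CPM in WAT_cold and 3.67 to 4.39 CPM in WAT. Nearly all of it was Star, at means of 2.417, 2.621, 3.387 and 3.987 CPM in the same order. Cyp11b1, Nr5a1 and Akr1b7 averaged at most 0.04584 CPM in any group. Cyp2b19, an enzyme of skin keratinocytes, had 0 counts in both brown fat groups. With 3 counts over the whole group taken as the floor, it was at least 112-fold lower in BAT than in WAT, where 546 of its 601 counts came from replicate 2, and at least 10.1-fold lower in BAT_cold than in WAT_cold by the same floor. At 5 °C it did not pass (adjusted p = 0.104, or 0.0873 without WAT_cold replicate 1), and the groups overlapped, since WAT_cold replicate 1 also had 0 counts. Cyp4f15 had 1 count in BAT_cold and 1 count in BAT. Its ratio of WAT_cold to BAT_cold was 101 (95% Clopper-Pearson interval 18 to 4020) and that of WAT to BAT was 45.8 (7.99 to 1830), and these intervals cover counting error only.

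**Figure D5:**
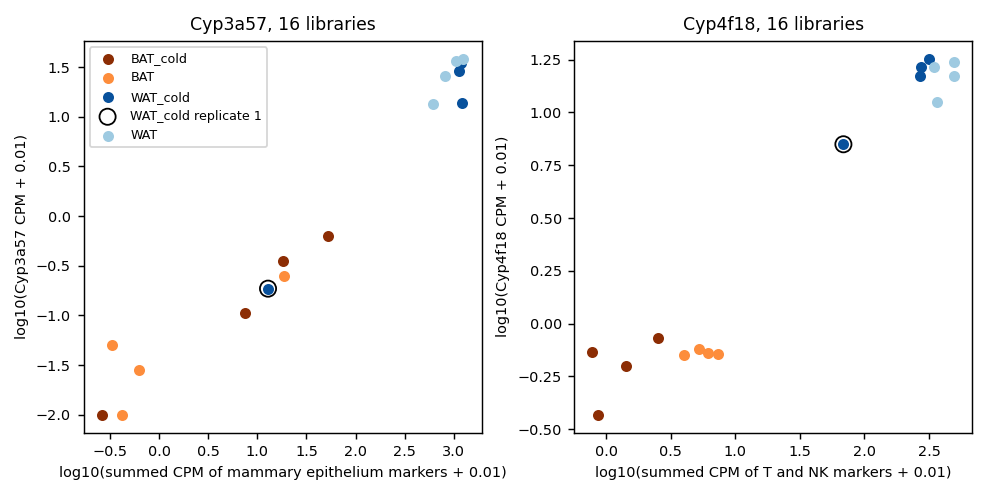
Levels of Cyp3a57 (left) and Cyp4f18 (right) in 16 libraries against the summed CPM of mammary epithelium or of T and NK cell markers, all as log10 of CPM + 0.01, coloured by group with a ring around WAT_cold replicate 1. The ringed library had 12.8 CPM of mammary markers and 0.176 CPM of Cyp3a57, and 68.6 CPM of T and NK markers and 7.06 CPM of Cyp4f18.

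Cyp3a57 (ENSMUSG00000070419), of the CYP3A subfamily, was at 0, 0.623, 0.345 and 0.0965 CPM in BAT_cold and at 0.0184, 0.24, 0.0404 and 0 CPM in BAT. It was at 0.176, 29, 13.7 and 34.8 CPM in WAT_cold and at 38.6, 13.4, 25.75 and 36.3 CPM in WAT. WAT_cold replicate 1 was at the level of brown fat. The difference of BAT from WAT was -8.47 ± 1.36 (SE, adjusted p = 5.94e-05) and that of BAT_cold from WAT_cold was -6.06 (adjusted p = 0.000313), or -6.48 without WAT_cold replicate 1, on the log2 scale. The summed mammary epithelium markers, replicates in order, were at 0.25, 51.9, 18.4 and 7.41 CPM in BAT_cold, 0.607, 18.6, 0.323 and 0.405 CPM in BAT, 12.8, 1120, 1210 and 1196 CPM in WAT_cold and 1256, 615, 820.5 and 1061 CPM in WAT. Of the 8 markers, 5 were tested and all 5 were lower in BAT than in WAT, while Wap had 0 counts in BAT_cold and Csn2 in BAT. Their part in the result was not tested. Of its exon windows, 8.63% also occur in another gene, mainly Cyp3a59.

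Cyp4f18, which inactivates leukotriene B4 in mouse neutrophils, was at 0.361, 0.623, 0.85 and 0.724 CPM in BAT_cold and at 0.717, 0.701, 0.707 and 0.746 CPM in BAT. It was at 7.06, 18, 16.45 and 14.8 CPM in WAT_cold and at 14.9, 16.4, 17.3 and 11.2 CPM in WAT. Brown and white fat did not overlap, with a log2 difference of -4.34 at 30 °C (adjusted p = 2.1e-08) and of -4.39 at 5 °C (adjusted p = 1.76e-08), or -4.62 without WAT_cold replicate 1. The 6 T and NK cell markers summed to 0.772 to 2.53 CPM in BAT_cold, 3.97 to 7.27 CPM in BAT, 68.6 to 319 CPM in WAT_cold and 344 to 496 CPM in WAT, and all 6 were lower in BAT than in WAT. None of the 6 was at 0 counts in a group, and their part in the result was not tested. In BAT_cold against BAT these markers fell in 6 of 6 cases, from sums that were already low in BAT. Cyp4f18 did not pass in that comparison (-0.14, adjusted p = 0.694). No neutrophil markers were counted, and the cell source of Cyp4f18 was not tested.

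Liver, the tissue that the family is best known from, was checked with 6 hepatocyte markers. They summed to 1.78 to 2.71 CPM in BAT_cold, 0.597 to 5.31 CPM in BAT, 19.8 to 67.4 CPM in WAT_cold and 11.7 to 20.9 CPM in WAT. The white fat sums were mainly Alb (means 32.96 CPM in WAT_cold and 12.85 CPM in WAT) and Fgb (7.021 and 3.235 CPM). Of the 3 hepatocyte markers tested, 1 was higher and 2 lower in BAT than in WAT. Apoa2 averaged 0.915 CPM in BAT and 0.229 CPM in WAT. Macrophage markers summed to 141 to 204 CPM in BAT_cold, 163 to 219 CPM in BAT, 531 to 1300 CPM in WAT_cold and 727 to 980 CPM in WAT, and all 4 were lower in BAT than in WAT. All 3 fibroblast markers were also lower in BAT, and all 3 endothelial markers higher. Skeletal muscle markers varied within groups, from 1.11 to 1380 CPM in BAT_cold and from 1.58 to 932 CPM in BAT. They ran from 6.32 to 4510 CPM in WAT_cold and from 68.2 to 6870 CPM in WAT. Replicate 1 was the highest WAT_cold library, and without it the WAT_cold range was 6.32 to 154 CPM. The part of these cell types in the depot differences was not tested.

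Among the pathway genes at 30 °C, where 34.5% of all genes were higher and 35.3% lower in BAT, 7 of 11 electron donors were higher and 1 lower in BAT than in WAT, as were 12 and 1 of 14 heme genes, 5 and 1 of 8 flavin monooxygenases and epoxide hydrolases, and 7 and 2 of 15 nuclear receptors. Of 10 Ah receptor pathway genes 4 were higher and 4 lower, of 14 steroid and oxysterol genes 3 were higher and 7 lower, and of the 3 other P450s 0 were higher and 2 lower.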

How the data were processed

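RNA was measured by poly(A) sequencing in 16 libraries. The authors deposited a table of raw counts per gene, made with Trim Galore and TopHat per the submitters' processing notes. No source used here gives the build, annotation, counter or strand setting. Ensembl identifiers were matched to symbols for 45143 of 46078 genes. The members, classes, gene lists and tests were chosen with earlier results of these data known.

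Counts were scaled by TMM, filtered (minimum count 10, minimum total 15) and tested with the edgeR 4.0.16 quasi-likelihood test in R 4.3.3, adjusted by Benjamini-Hochberg over all genes at 0.05. Each tissue was fitted alone for cold, and all 16 libraries together for depot and for the difference of cold effects. SE was derived from the log2 fold change and its F statistic. CPM use TMM-adjusted library sizes, and RPKM use merged exon lengths of a mouse annotation that may not be the authors'. All members may be named, with values in every library for those that passed in cold with a log2 change of at least 1 and 5 CPM, the 6 highest per length in a depot, or a passing difference of cold effects. Replicates were compared pairwise and none were alike enough to be the same library (lowest chi-square over degrees of freedom 21.4). Alternatives were RLE scaling, library totals, no filter, DESeq2 1.42.0, adjusted p of 0.01, library-total CPM in the member rule, left-out libraries, all 16 libraries, matching labels and a replicate block. The code was also run on simulated counts in which few genes changed, unlike in most comparisons here. That run does not test the scaling, and its outcome is not given. Among the pathway genes counted, 1 is not reported here.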

Additional observations from a re-analysis of the deposited data

Results flagged for a closer look

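A library was marked where its gap to the nearest of its group divided by the group's range exceeded Dixon's 95% critical value, which chance gives in about 1 of 20 groups. Of 96 groups of 4 libraries, 11 were marked. WAT_cold replicate 1 was the highest of its group for Cyp2u1 (9.104 CPM), Cyp4b1 (70.72 CPM), Cyp2e1 (1986 CPM), Cyp4f17 (22.32 CPM), Cyp4v3 (71.09 CPM), Cyp2f2 (131.5 CPM) and Cyp2b10 (6.48 CPM). WAT replicate 4 was the highest for Cyp4v3 (42.81 CPM) and Cyp20a1 (24.13 CPM). WAT replicate 2 was the highest for Cyp2b19 (5.853 CPM, next 0.296 CPM), and BAT_cold replicate 1 for Cyp2f2 (2.247 CPM).

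The cold effect in WAT minus that in BAT passed the test of the difference for 10 members, on the log2 scale: Cyp2e1 (3.30), Cyp2f2 (2.69), Cyp1b1 (1.53), Cyp2j6 (1.48), Cyp27a1 (1.26), Cyp4v3 (1.18), Cyp2j9 (1.03), Cyp4f16 (0.89), Cyp2d22 (-0.94) and Cyp1a1 (-4.06).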

How the results depend on the processing

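Members called in BAT_cold against BAT numbered 16, and 11 to 18 under the alternatives (11 in the 4 brown fat libraries with matching labels). In WAT_cold against WAT the count was 0, with 4 by DESeq2, 8 in the fit of all 16 libraries, and 0 to 1 with a library left out. BAT against WAT gave 23 (20 to 27), BAT_cold against WAT_cold 23 (21 to 26) and the difference of cold effects 10 (8 to 13). Equal replicate numbers correlated from -0.461 to 0.301 and were not shown to pair the samples. With the replicate block the counts were 15, 0, 23, 25 and 9, and Cyp4v3 between the cold depots turned to 0.0357. In this fit Cyp4b1 in BAT_cold against BAT (adjusted p = 0.103), Cyp2r1 in BAT against WAT (0.0685) and Cyp2j9 in the difference of cold effects (0.0583) were not called, while Cyp2e1 in BAT against WAT (0.0307) and Cyp2b10 (0.0256) and Cyp2b19 (0.0112) between the cold depots were. Estimates of single members kept their side of the threshold and direction in 1677 cases, lost the threshold in 58, gained it in 35 and reversed in 43.

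Reversed with library totals (log2): in BAT_cold against BAT, Cyp20a1 -0.35. In WAT_cold against WAT, Cyp4f16 -0.0047, Cyp4f13 -0.18, Cyp27a1 -0.0356, Cyp20a1 -0.20 and Cyp2f2 -0.0033. In BAT against WAT, Cyp4f16 -0.48, Cyp2j9 -0.66, Cyp4f17 -0.74 and Cyp20a1 -0.84. In BAT_cold against WAT_cold, Cyp4f13 -0.26, Cyp2j6 -0.31 and Cyp2r1 -0.81. Library totals shift the estimates of a comparison together. Other reversals did not pass. Cyp4f17 in BAT_cold against BAT turned to 0.0066 with RLE and 0.0053 with DESeq2. In libraries with matching labels, Cyp26b1 moved from 0.72 to -0.30, and Cyp4f18 (0.18) and Cyp46a1 (0.0198) also turned. Cyp20a1 in BAT against WAT turned with RLE (-0.0701), no filter (-0.0217) and DESeq2 (-0.0697). With a library left out, BAT_cold against BAT ran from -0.0775 to 0.0804 for Cyp4f17, from -0.2886 to 0.0564 for Cyp4f18 and from -0.493 to 0.0521 for Cyp46a1. WAT_cold against WAT ran from -0.027 to 0.1825 for Cyp20a1, from -0.416 to 0.781 for Cyp2f2 and from -0.2561 to 0.0973 for Cyp4f18. BAT against WAT ran from -0.0332 to 0.1218 for Cyp20a1. BAT_cold against WAT_cold ran from -0.1048 to 0.2354 for Cyp4v3, from -0.1115 to 0.0133 for Cyp20a1 and from -0.0612 to 0.2862 for Cyp2r1. The cause of these reversals was not tested.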
